A study of Mus musculus with 12 samples.

Results

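The transcription factor p53 is held low in unstressed cells, because its own target Mdm2 marks it for destruction. When DNA damage or another stress stabilises p53, it binds paired decamer motifs near its target genes and raises their transcription. The products then halt the cell cycle, promote cell death or repair, or close the feedback loop. Cyclin-dependent kinase 7, the product of Cdk7, is the kinase of the general transcription factor TFIIH and also activates the kinases that drive the cell cycle. Brown fat burns lipid to make heat in the cold, chiefly through the mitochondrial uncoupling protein Ucp1.

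Described here are 10 established p53 target genes in interscapular brown adipose tissue of mice. They are Cdkn1a and Zmat3 (arrest and RNA binding), Mdm2 and Ccng1 (feedback), and Bax, Bbc3, Aen, Trp53inp1, Eda2r and Phlda3 (death and growth signalling). They were taken by name from a list and make up 10 of the 53379 genes counted. All 10 passed the filter on low counts, which left 15208 genes for testing.

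The study measured RNA by sequencing in 12 libraries from C57BL/6 mice aged 12 weeks, killed at zeitgeber time 9. The 4 groups were Cdk7 bKO mice in the cold, Cdk7 bKO mice at room temperature, control littermates labelled wild type in the cold, and the same kind of controls at room temperature (RT). Cold lasted 6 h, with food. They are called KO and WT below. Each group had 3 libraries, and each library was a pool of RNA from 2 mice, 250 ng from each. A value is therefore an average over 2 animals, and p-values measure the spread between pools. The sources used here do not give the driver of the deletion, the sex of the mice or the temperature of the cold. The KO pools at RT are numbered 4, 5 and 6 in the labels, and all other groups 1, 2 and 3.

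The promoters were read first, since p53 acts on its targets through a response element. RefSeq windows on GRCm38.p6, from 250 bases before to 50 after a start site, were found for 8 of the 10 genes, 12 windows in all. Each was searched for the 20-base stretch closest to the p53 response element, 2 adjacent decamers with 0 bases between them. The consensus is its own reverse complement, so 1 strand covers both. The closest stretches of the 6 genes with at most 3 mismatches or an exact decamer are shown, because they differ in how well they match. Capitals mark bases that fit the consensus.
Cdkn1a: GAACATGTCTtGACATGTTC
Ccng1: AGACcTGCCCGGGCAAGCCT
Bax: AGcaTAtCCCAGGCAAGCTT
Bbc3: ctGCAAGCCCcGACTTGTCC
Aen: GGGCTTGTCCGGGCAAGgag
Mdm2: GAACTTGCCTAGcgAccaTT
The Cdkn1a stretch lies at chr17:29090928-29090947 on the plus strand, 51 bases before the start site of its first window, and has 1 mismatch. In its second window, chr17:29093519-29093818, the closest stretch had 5 mismatches. The Ccng1 stretch, at chr11:40755462-40755481 on the minus strand and 195 bases before the start, also has 1 mismatch. Of all 32851 promoter windows of 300 bases, 0.0883% held a stretch with at most 1 mismatch. Bax (chr7:45467090-45467109, minus strand), Bbc3 (chr7:16309486-16309505, plus strand) and Aen (chr7:78895937-78895956, plus strand) each had 3 mismatches, and 6.29% of all windows matched as well or better. The closest stretch of Mdm2 (chr10:117710925-117710944, minus strand) had 5 mismatches, as 76.6% of windows did or bettered, but its first decamer was exact. Phlda3 had 5 mismatches and Eda2r 6. The other windows of Bbc3 had 5 and 6. Shares of all windows count single windows, whereas a gene with several windows is shown by its closest. An exact decamer was found in 6 of the 12 windows and in 8.36% of all windows. Both Aen windows overlap and hold the same stretch, so its decamer is counted in each of them. Elements outside these windows, or with bases between the decamers, were not sought, so a poor match here does not make a gene a lesser target. These matches describe letters in a window and show no binding.

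The whole first window of Cdkn1a is chr17:29090729-29091028 on the plus strand. It is given with the stretch above in capitals, as the closest match of the set together with that of Ccng1.
Cdkn1a window: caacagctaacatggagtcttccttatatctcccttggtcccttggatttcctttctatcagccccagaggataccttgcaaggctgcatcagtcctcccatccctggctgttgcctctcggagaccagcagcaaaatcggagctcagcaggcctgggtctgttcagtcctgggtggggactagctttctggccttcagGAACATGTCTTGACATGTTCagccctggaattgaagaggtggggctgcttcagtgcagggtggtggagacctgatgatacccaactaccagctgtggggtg
The values of Cdkn1a and Ccng1 below show how differently a pair of genes with such windows varied in these pools.

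Cdk7 itself had 5.38, 4.85 and 5.39 CPM (counts scaled to a common library size, with TMM factors) in KO in the cold, against 17.9, 16.1 and 15.7 in WT in the cold. At RT it had 4.35, 5.15 and 5.77 CPM in KO and 16.4, 15.1 and 16.1 in WT, so the labels held in every pool. Gene counts per library summed to between 27609717 and 36792555. Skeletal muscle transcripts, 15 genes summed, ran from 3.84 to 1140 CPM within KO at RT and from 18.9 to 799 within WT at RT, with KO pool 6 and WT pool 2 the richest. None of the 15 passed the test in any comparison.

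At RT, 5 of the 10 genes were higher in KO than in WT and none was lower, and in the cold 6 were higher and none lower. Among all genes tested, 40.4% were called in KO against WT at RT (19.3% higher, 21% lower) and 53.7% in the cold (25.9% higher, 27.8% lower). The median log2 fold change of the 10 genes was 0.448 at RT and 0.407 in the cold, against 0.00334 and 0.0116 over all genes. Zmat3, Bax and Eda2r passed the test at both temperatures. Cdkn1a and Aen passed at RT and not in the cold, Mdm2, Bbc3 and Trp53inp1 in the cold and not at RT, and Ccng1 and Phlda3 at neither. A call at 1 temperature alone is not a difference between temperatures, which only the interaction of genotype and cold tests. By that interaction 2 of the 10 genes passed, Trp53inp1 upward and Aen downward, where 23.5% of all genes did (10.6% upward, 12.9% downward).

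Cold against RT moved the 10 genes in both directions. In KO, Zmat3, Mdm2, Aen and Trp53inp1 were higher in the cold and Phlda3 lower, where 14.8% of all genes were called (7.29% higher, 7.56% lower). In WT, Cdkn1a, Zmat3, Mdm2, Bax and Aen were higher in the cold, and Bbc3, Trp53inp1 and Phlda3 were lower, where 46.3% of all genes were called (23% higher, 23.2% lower). The median log2 fold change of the 10 genes was 0.405 in KO and 0.118 in WT, against -0.0248 and -0.0307 over all genes. The comparisons share pools with each other, so their values are given side by side and not as separate evidence.

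Bulk tissue does not tell fewer cells of a type from less RNA per cell, and other markers moved with genotype. The 12 macrophage markers summed to 276 to 382 CPM in KO and 105 to 108 in WT in the cold, and to 245 to 337 in KO and 75.7 to 98.6 in WT at RT, with 10 of the 11 tested higher in KO at each temperature. The 10 brown adipocyte markers summed to 13700 to 14800 CPM in KO and 27000 to 29900 in WT in the cold, and to 13100 to 16100 in KO and 19800 to 22200 in WT at RT. Of these, 8 were lower in KO at RT and 7 in the cold, and none was higher. Endothelial markers summed to 761 to 897 CPM in KO and 689 to 699 in WT in the cold, with 7 of 10 higher and 1 lower. At RT they summed to 779 to 793 CPM in KO and 528 to 632 in WT, with 8 higher. Fibroblast markers summed to 512 to 700 CPM in KO and 425 to 580 in WT in the cold, with 6 of 10 higher, and to 499 to 568 in KO and 355 to 425 in WT at RT, with 5 higher. Their part in the results below was not tested. Scaling by library totals alone instead of TMM put the median of all genes at 0.22 at RT and 0.45 in the cold (log2, KO over WT). All-gene calls then split into 4739 higher and 1267 lower at RT (2940 and 3198 with TMM), and 7881 and 1073 in the cold (3939 and 4222). The 10 genes then gave 6 higher and 0 lower at RT and 8 higher and 0 lower in the cold.

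**Figure D1:**
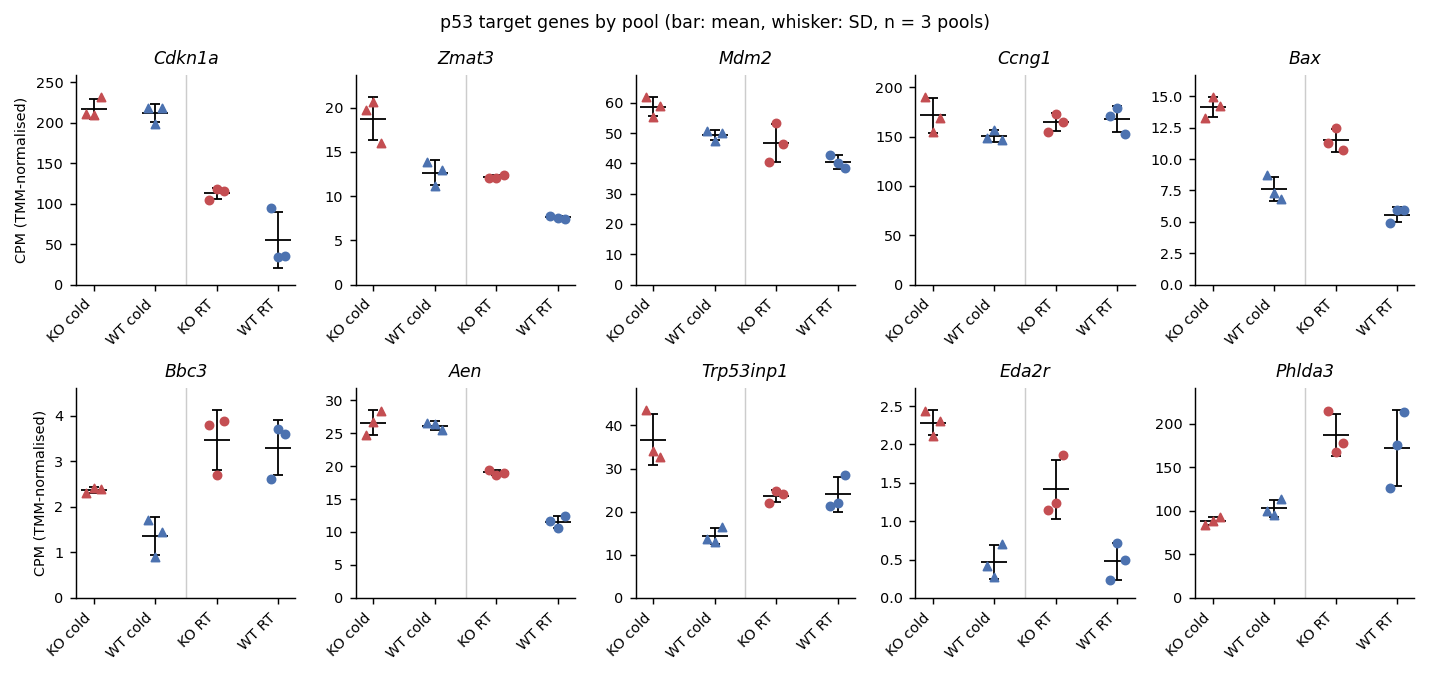
Level of each of the 10 genes in every pool (y axis, CPM after TMM scaling, from 0, own scale per gene; x axis, the 4 groups, cold left of RT, and KO left of WT at each temperature). Points are pools and the bars give mean and SD (n = 3). In the cold the KO pools of Trp53inp1 lie at 32.7 to 43.5 CPM and the WT pools at 12.9 to 16.5, while the Ccng1 pools of all groups overlap.

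Per kilobase of exon (RPKM, a level that can be compared between genes), Phlda3, Ccng1 and Cdkn1a stood highest in all 4 groups, followed by Mdm2, and Eda2r stood lowest. In KO in the cold the leading gene was Cdkn1a (61.3 ± 3.47 RPKM, SD, n = 3), next to Phlda3 at 56.6 ± 3.04 and Ccng1 at 48.8 ± 5.06, and the pools of Cdkn1a and Phlda3 lay close together. In WT in the cold Phlda3 led at 66.0 ± 6.2 RPKM and Cdkn1a followed at 59.6 ± 3.24, again neighbours within their spread. At RT, Phlda3 stood well above Ccng1, with 120 ± 15.7 against 46.9 ± 2.61 RPKM in KO and 110 ± 28 against 47.7 ± 3.79 in WT. Eda2r, the receptor with the lowest level, had 0.388 ± 0.0268 RPKM in KO and 0.0787 ± 0.0377 in WT in the cold.

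Cdkn1a (ENSMUSG00000023067, chr17:29090976-29100727, plus strand) encodes p21, which inhibits cyclin-dependent kinases and is the classical arrest target. It had 211, 210 and 232 CPM in KO in the cold, against 218, 199 and 219 in WT in the cold. The cold groups overlapped, and both stood above every RT pool. At RT it had 105, 118 and 116 CPM in KO and 95.0, 34.6 and 35.1 in WT. There the KO pools lay above all WT pools, but WT pool 1 stood close to them and far from the other two. The log2 fold change at RT was 1.05 ± 0.35 (SE), or 2.07-fold, and passed edgeR's quasi-likelihood test (Benjamini-Hochberg adjusted p = 0.042). It was 1.69 (adjusted p = 7.9e-09) without WT pool 1, but did not pass without WT pool 2 or WT pool 3 (0.80, adjusted p = 0.11 each), without KO pool 4 (1.10, 0.071), KO pool 5 (1.01, 0.097) or KO pool 6 (1.03, 0.095). Nor did it pass without the pair of libraries richest in muscle transcripts (0.78, adjusted p = 0.2) or with only the libraries compared (1.05, adjusted p = 0.17).

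Its log2 fold change of KO over WT in the cold was 0.04 ± 0.34 (adjusted p = 0.93), with a 95% interval of -0.74 to 0.83. Cold against RT gave 0.95 ± 0.35 in KO, which did not pass (adjusted p = 0.11), and 1.95 ± 0.36 in WT, or 3.87-fold (adjusted p = 0.0021). At about the same size the KO value passed with only the libraries compared (0.96, adjusted p = 3.6e-05) and with no filter beyond 1 count (0.97, 1.7e-18). It also passed with limma voom (0.90, 0.021) and with library totals alone (0.97, 0.049). Over 15 alternatives it stayed at 0.90 to 0.98, while its adjusted p ran from 1.7e-18 to 0.24. So the adjusted p depended on the estimate of the spread, and the smallest ones should not be read as stronger evidence. The difference between both cold responses was -1.01 ± 0.49 (adjusted p = 0.18), and it passed without WT pool 1 at RT (-1.64, adjusted p = 2.8e-07), with no filter beyond 1 count (-0.96, 2.9e-09) and with voom (-1.45, 0.011). A gene of unknown type on the opposite strand overlaps an exon of Cdkn1a, so its counts are uncertain where strands were not kept apart.

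Zmat3 (ENSMUSG00000027663, chr3:32334792-32366014, minus strand) encodes a zinc finger protein that binds RNA. It had 19.7, 20.6 and 16.0 CPM in KO in the cold, against 13.9, 11.2 and 12.9 in WT in the cold. Its RT values were 12.1, 12.1 and 12.4 CPM in KO and 7.78, 7.56 and 7.43 in WT. No KO pool reached down to a WT pool at either temperature, and no cold pool to an RT pool of its genotype. KO against WT gave 0.69 ± 0.11 at RT (1.61-fold, adjusted p = 0.00016) and 0.57 ± 0.11 in the cold (1.48-fold, adjusted p = 0.00038). Cold raised Zmat3 by 0.62 ± 0.11 in KO (adjusted p = 0.001) and 0.74 ± 0.11 in WT (adjusted p = 4.7e-05). Their difference was -0.12 ± 0.16 (95% interval -0.45 to 0.21). Zmat3 was the only one of the 10 genes to pass in all 4 pairwise comparisons.

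Mdm2 (ENSMUSG00000020184, chr10:117688875-117710758, minus strand) encodes the ubiquitin ligase that degrades p53. It had 61.8, 55.4 and 58.8 CPM in KO in the cold, against 50.7, 47.4 and 50.0 in WT in the cold. Pools at RT had 40.6, 53.2 and 46.4 CPM in KO and 42.8, 40.0 and 38.3 in WT. The groups overlapped at RT and were apart in the cold. The genotypes differed by 0.21 ± 0.09 at RT (adjusted p = 0.078) and 0.25 ± 0.09 in the cold (1.19-fold, adjusted p = 0.031). The value at RT passed without KO pool 4 (0.30, adjusted p = 0.012), with the stricter filter of a CPM of 1 in 6 libraries (0.24, 0.038), with voom (0.24, 0.024) and with library totals alone (0.43, 0.0059). The call in the cold ended without any 1 of WT pools 1, 2 or 3 (0.26, 0.23 and 0.27, adjusted p = 0.055, 0.098 and 0.054) or without KO pool 1 (0.21, 0.11) or 3 (0.24, 0.064).

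Mdm2 was also higher in the cold than at RT, by 0.33 ± 0.09 in KO (adjusted p = 0.023) and 0.29 ± 0.09 in WT (adjusted p = 0.016). Both calls were narrow. In KO it ended without KO pool 4 at RT (0.24, adjusted p = 0.1), KO pool 6 at RT (0.32, 0.072) or KO pool 1 in the cold (0.29, 0.1). In WT it ended without WT pool 3 at RT (0.25, adjusted p = 0.075) or WT pool 1 in the cold (0.27, 0.054). Without the pair of libraries richest in muscle transcripts both calls ended (0.32 in KO, adjusted p = 0.089, and 0.28 in WT, 0.058). With library totals alone it was 0.35 in KO (adjusted p = 0.055) and 0.10 in WT (adjusted p = 0.49).

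Ccng1 (ENSMUSG00000020326, chr11:40748552-40755311, minus strand) encodes cyclin G1, which recruits a phosphatase to Mdm2. It had 190, 155 and 169 CPM in KO in the cold, against 148, 157 and 146 in WT in the cold. At room temperature the levels were 155, 173 and 165 CPM in KO and 171, 179 and 153 in WT. Groups overlapped in every comparison, and none passed with the settings used throughout. The log2 fold change of KO over WT was -0.03 ± 0.09 at RT (95% interval -0.22 to 0.17) and 0.19 ± 0.09 in the cold (adjusted p = 0.095, interval -0.01 to 0.38). The value in the cold passed without KO pool 2 (0.25, adjusted p = 0.048), with the stricter filter (0.25, 0.029), with only the libraries compared (0.22, 0.031) and with library totals alone (0.63, 0.00017). Library totals also made Ccng1 lower in the cold than at RT in WT (-0.35, adjusted p = 0.019).

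**Figure D2:**
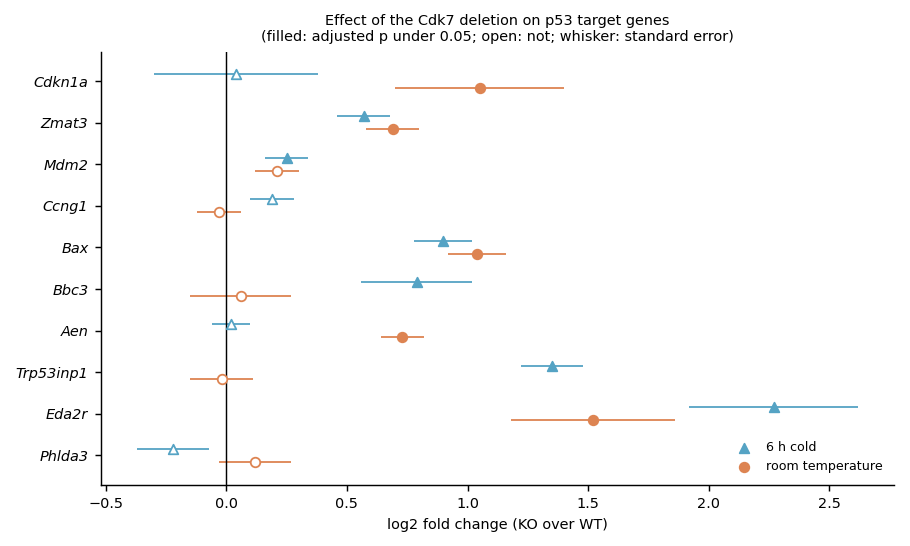
Log2 fold change of KO over WT (x axis) for the 10 genes (y axis, arrest genes at the top), in the cold and at RT. Filled symbols passed at an adjusted p under 0.05, open ones did not, and whiskers are standard errors. Eda2r has the largest values at both temperatures (2.27 in the cold and 1.52 at RT), while Trp53inp1 lies at 1.35 in the cold and -0.02 at RT.

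Bax (ENSMUSG00000003873, chr7:45461697-45466898, minus strand) encodes the protein that perforates the outer mitochondrial membrane in apoptosis. It had 13.3, 14.9 and 14.2 CPM in KO in the cold, against 8.69, 7.26 and 6.85 in WT in the cold. At RT it had 11.3, 12.5 and 10.7 CPM in KO and 4.87, 5.91 and 5.96 in WT. Every KO pool stood above every WT pool of either temperature. Between KO and WT the fit gave 1.04 ± 0.12 at RT (2.06-fold, adjusted p = 7.1e-06) and 0.90 ± 0.12 in the cold (1.86-fold, adjusted p = 1.4e-05). The response to cold was 0.30 ± 0.12 in KO, which did not pass (adjusted p = 0.096) except with voom (0.38, 0.0058), and 0.44 ± 0.13 in WT (adjusted p = 0.0081), a call that ended without WT pool 1 in the cold (0.33, 0.057) and with library totals alone (0.24, 0.23). A predicted gene on the same strand shares an exon with Bax, so reads there could be ambiguous and its counts are uncertain.

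Bbc3 (ENSMUSG00000002083, chr7:16308393-16318205, plus strand) encodes PUMA, which releases Bax from its inhibitors. It rested on few reads, with 91, 89 and 78 counts in KO in the cold, 46, 20 and 39 in WT in the cold, 139, 85 and 119 in KO at RT and 68, 130 and 132 in WT at RT. These were 2.3, 2.41 and 2.4 CPM in KO in the cold, against 1.72, 0.907 and 1.45 in WT in the cold. At RT they were 3.8, 2.7 and 3.88 CPM in KO and 2.61, 3.7 and 3.59 in WT. The genotypes overlapped at RT and were apart in the cold, where both genotypes stood lower than at RT. KO against WT gave 0.06 ± 0.21 at RT (95% interval -0.38 to 0.51) and 0.79 ± 0.23 in the cold (1.73-fold, adjusted p = 0.0093). Cold over RT came to -0.55 ± 0.21 in KO (adjusted p = 0.098) and -1.27 ± 0.23 in WT (2.41-fold lower, adjusted p = 0.00027). The KO value passed without KO pool 5 at RT (-0.69, adjusted p = 0.043) and with voom (-0.59, 0.017). The difference between these responses, 0.72 ± 0.32, did not pass (adjusted p = 0.11), and it passed without WT pool 1 at RT (0.87, adjusted p = 0.047) and with voom (0.89, 0.022).

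Aen (ENSMUSG00000030609, chr7:78895854-78911209, plus strand) encodes a nuclease that cuts DNA in apoptosis. It had 24.7, 26.7 and 28.4 CPM in KO in the cold, against 26.6, 26.4 and 25.4 in WT in the cold. Its RT values were 19.4, 18.7 and 19.0 CPM in KO and 11.6, 10.6 and 12.4 in WT. KO was above WT at RT, whereas in the cold the genotypes overlapped and lay above all RT pools. The genotypes differed by 0.02 ± 0.08 in the cold (adjusted p = 0.83, 95% interval -0.16 to 0.20) and 0.73 ± 0.09 at RT (1.65-fold, adjusted p = 8.8e-06). With library totals alone the value in the cold was 0.46 and passed (adjusted p = 0.0011). Cold raised it by 0.48 ± 0.08 in KO (1.4-fold, adjusted p = 0.0012) and by 1.18 ± 0.09 in WT (2.27-fold, adjusted p = 3.1e-08). The difference between both cold responses passed, at -0.70 ± 0.12 (adjusted p = 0.00082).

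Trp53inp1 (ENSMUSG00000028211, chr4:11156431-11174379, plus strand) encodes a stress protein that cooperates with p53 and takes part in autophagy. It had 43.5, 34.0 and 32.7 CPM in KO in the cold, against 13.7, 12.9 and 16.5 in WT in the cold. Pools at RT had 22.0, 24.7 and 24.1 CPM in KO and 21.4, 22.0 and 28.6 in WT. The genotypes overlapped at RT, and in the cold KO lay above and WT below all RT pools. The log2 fold change of KO over WT was -0.02 ± 0.13 at RT (95% interval -0.30 to 0.25) and 1.35 ± 0.13 in the cold (2.56-fold, adjusted p = 8.8e-07). It rose in the cold by 0.64 ± 0.13 in KO (1.55-fold, adjusted p = 0.0039) and fell by 0.74 on the log2 scale in WT (SE 0.13, 1.67-fold lower, adjusted p = 0.00028). The difference between these responses was 1.38 ± 0.19 (adjusted p = 0.00016). It was the only one of the 10 genes called in opposite directions by cold in the 2 genotypes.

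Eda2r (ENSMUSG00000034457, chrX:97333840-97377216, minus strand) encodes the receptor for the ectodysplasin isoform A2. Its counts were low, at 96, 78 and 75 in KO in the cold, 11, 6 and 19 in WT in the cold, 42, 39 and 57 in KO at RT and 6, 25 and 18 in WT at RT. In CPM these were 2.43, 2.11 and 2.31 in KO in the cold, against 0.412, 0.272 and 0.707 in WT in the cold. At RT they were 1.15, 1.24 and 1.86 CPM in KO and 0.23, 0.711 and 0.49 in WT. KO pools stood above WT pools at both temperatures, and the KO cold pools above all others. Between KO and WT the fit gave 1.52 ± 0.34 at RT (2.86-fold, adjusted p = 0.0021) and 2.27 ± 0.35 in the cold (4.81-fold, adjusted p = 4.5e-05). At RT, the KO pool richest in muscle transcripts was also the highest in Eda2r, and without it and the WT pool richest in them the value was 1.66 (adjusted p = 0.0077). Cold against RT gave 0.69 ± 0.30 in KO (adjusted p = 0.13) and -0.06 ± 0.39 in WT (adjusted p = 0.92), and their difference did not pass (0.75 ± 0.49, adjusted p = 0.3).

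Phlda3 (ENSMUSG00000041801, chr1:135766119-135769136, plus strand) encodes a small protein that competes with the kinase Akt for membrane lipids and so restrains its survival signal. It had 83.5, 88.2 and 92.9 CPM in KO in the cold, against 99.9, 95.1 and 114 in WT in the cold. At room temperature the levels were 214, 168 and 178 CPM in KO and 126, 176 and 213 in WT. Every cold pool lay below every RT pool, and in the cold KO lay below WT. The response to cold was -1.08 ± 0.15 in KO (2.12-fold lower, adjusted p = 0.00053) and -0.74 ± 0.15 in WT (1.67-fold lower, adjusted p = 0.0014). KO against WT did not pass, at 0.12 ± 0.15 at RT (95% interval -0.21 to 0.45) and -0.22 ± 0.15 in the cold (adjusted p = 0.24, interval -0.55 to 0.11).

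**Figure D3:**
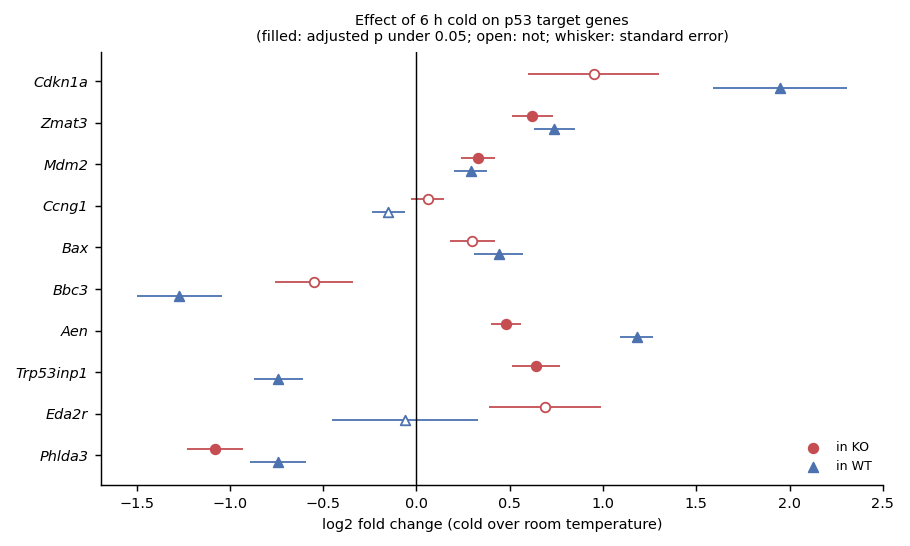
Log2 fold change of cold over RT (x axis) for the 10 genes (y axis), in KO and in WT. Filled symbols passed at an adjusted p under 0.05, open ones did not, and whiskers are standard errors. Trp53inp1 lies at 0.64 in KO and -0.74 in WT, and Aen at 0.48 in KO and 1.18 in WT, the pair whose responses differed by the interaction test.

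KO pools all stood above WT pools for 5 of the 10 genes at RT and for 6 in the cold, where 1 stood below. Over all genes, 48.8% did not overlap at RT (23.9% above, 24.9% below) and 62.7% in the cold (30.6% above, 32.1% below). Cold pools all stood above RT pools for 7 of the 10 genes in KO and 5 in WT, and below for 2 in KO and 3 in WT. Over all genes, 32.8% did not overlap in KO (15.3% above, 17.4% below) and 55.4% in WT (27.6% above, 27.9% below).

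Across the 12 libraries the 10 genes did not vary as 1 block. Of the 45 pairs, 29 had a positive Pearson correlation of log2 CPM, with a median of 0.36 and a range of -0.80 to 0.93. Cdkn1a and Aen were most alike, and Cdkn1a and Phlda3 most opposed. With each group's mean taken off, 24 of the 45 pairs were positive and the median was 0.02. The libraries share genotype and cold, so these values describe the design as much as the genes.

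For each of the 10 genes the protein-coding gene with the most similar profile over the 12 libraries was sought among 10383 candidates. It was Acot5 for Cdkn1a (Pearson r = 0.985), Ftl1 for Zmat3 (0.977), Wbp4 for Mdm2 (0.965) and Gtf2a1 for Ccng1 (0.854). For the death genes it was Flna for Bax (0.978), Car7 for Bbc3 (0.956), Hspb1 for Aen (0.986), Cd38 for Trp53inp1 (0.972), Soat1 for Eda2r (0.973) and Rtkn for Phlda3 (0.945). Ccng1, whose groups overlapped throughout, had the lowest of these maxima. Such maxima over many candidates are high by construction and are given as a description only.

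Trp53, the gene of p53 itself, had 14.6, 15.0 and 17.2 CPM in KO in the cold, against 16.1, 13.7 and 12.5 in WT in the cold. At RT it had 18.9, 17.4 and 20.5 CPM in KO and 12.1, 11.6 and 14.3 in WT. It was higher in KO at RT, by 0.58 ± 0.12 (1.5-fold, adjusted p = 0.00083), and overlapped in the cold (0.14 ± 0.12, adjusted p = 0.31), and the difference between temperatures was -0.44 ± 0.16 (adjusted p = 0.062). The level of p53 protein, which is regulated mainly by degradation, was not measured and cannot be read from this RNA.

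Of 12 genes, Trp53 and 11 that act on p53, 2 were higher and 4 lower in KO at RT, with Trp53 among the higher, and 4 were higher and 5 lower in the cold. That made 50% called at RT and 75% in the cold, where 40.4% and 53.7% of all genes were. These counts were not firm. The 5 lower in the cold became 2 with no filter beyond 1 count and 3 with the stricter filter of a CPM of 1 in 6 libraries. They were also 3 with the replicate block, fitted to the libraries compared alone. The 2 higher at RT became 1 with the stricter filter. With library totals alone, which turned the balance of all genes upward in KO in the same way, the 12 genes gave 3 higher and 2 lower at RT and 7 higher and 1 lower in the cold. Atm, the kinase that signals DNA breaks to p53, had 7.77 ± 0.515 CPM in KO and 5.08 ± 0.342 in WT in the cold, and 7.24 ± 0.515 in KO and 11.5 ± 2.11 in WT at RT (SD, n = 3). It was lower in KO at RT (-0.67 ± 0.13, adjusted p = 0.00082) and higher in the cold (0.61 ± 0.14, adjusted p = 0.0014), and the interaction passed (1.28 ± 0.19, adjusted p = 0.00028). The checkpoint kinase Chek2 was higher in KO in the cold (5.2 ± 0.445 CPM in KO, 2.27 ± 0.0961 in WT, log2 1.19 ± 0.18, adjusted p = 4.4e-05). Hipk2, a kinase that phosphorylates p53, was lower in KO in the cold (54.9 ± 2.5 CPM in KO, 99.5 ± 10.4 in WT) and at RT (74.8 ± 11.9 in KO, 119 ± 8.9 in WT). Its log2 fold change was -0.86 ± 0.11 in the cold (adjusted p = 8.2e-06) and -0.67 ± 0.11 at RT (adjusted p = 0.00014). Trp53bp1, a protein recruited to DNA breaks, overlaps a gene on the opposite strand and fell in KO in the cold by 0.60 on the log2 scale (SE 0.10, adjusted p = 6.4e-05).

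A further list of 32 p53 targets, of which 31 could be tested, gave 10 higher (32.3%) and 5 lower (16.1%) in KO at RT, with a median log2 fold change of 0.185. In the cold 21 were higher (67.7%) and 4 lower (12.9%), with a median of 0.749. Of all genes, 19.3% were higher and 21% lower at RT, and 25.9% and 27.8% in the cold. The medians of all genes were 0.00334 at RT and 0.0116 in the cold. With library totals alone the targets were 14 and 1 at RT and 25 and 1 in the cold. All genes then gave 4739 and 1267 at RT and 7881 and 1073 in the cold. Between cold and RT, 5 were higher in the cold (16.1%) and 1 lower (3.23%) in KO, where 7.29% and 7.56% of all genes were. In WT 6 were higher (19.4%) and 11 lower (35.5%), where 23% and 23.2% of all genes were. The differences between both cold responses passed for 8 upward (25.8%) and 3 downward (9.68%), against 10.6% and 12.9% of all genes. With library totals alone, cold against RT gave 6 higher and 0 lower in KO and 3 higher and 15 lower in WT. The difference then passed for 10 upward and 0 downward. All genes gave 801 higher and 675 lower in KO, 1826 and 4813 in WT, and 2388 upward and 711 downward for the difference.

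Ephx1, an epoxide hydrolase of detoxification, had 91.1, 92.7 and 91.8 CPM in KO in the cold, against 14.8, 15.6 and 26.2 in WT in the cold. Its RT values were 86.1, 83.8 and 84.4 CPM in KO and 21.5, 19.5 and 21.9 in WT. The KO pools stood far above all WT pools, by 2.28 ± 0.16 in the cold (log2, adjusted p = 3.4e-07) and 2.02 ± 0.16 at RT (adjusted p = 1.6e-06), although a pseudogene on the same strand overlaps it and makes its counts uncertain. Gdf15, a hormone released by stressed cells, had 158, 93 and 131 counts in KO in the cold, against 16, 9 and 16 in WT in the cold, with a log2 fold change of 2.70 ± 0.36 (adjusted p = 1.4e-05). Pools at RT had 87, 99 and 35 counts in KO and 1, 2 and 5 in WT (adjusted p = 2e-06).

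Fas, a death receptor, went in opposite directions by temperature. It had 21.3, 18.2 and 17.9 CPM in KO in the cold, against 10.1, 8.89 and 10.9 in WT in the cold. At room temperature the levels were 13.6, 11.9 and 12.4 CPM in KO and 17.4, 20.8 and 18.2 in WT. It was lower in KO at RT (-0.57 ± 0.11, adjusted p = 0.00053) and higher in the cold (0.94 ± 0.11, adjusted p = 3.3e-06). Cold against RT gave 0.60 ± 0.11 in KO (adjusted p = 0.0013) and -0.91 ± 0.11 in WT (adjusted p = 4.9e-06), and the interaction was 1.51 ± 0.15 (adjusted p = 1.1e-05).

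Among the others, the death receptor Tnfrsf10b was higher in KO at RT (0.61 ± 0.13, adjusted p = 0.0014), as was the repair nuclease Ercc5 (0.41 ± 0.08, adjusted p = 0.00063). In the cold the kinase Plk2 (8.25 ± 0.756 CPM in KO, 4.18 ± 0.684 in WT, log2 0.99 ± 0.15, adjusted p = 3.4e-05) and the antiproliferative gene Btg2 (15.3 ± 0.476 in KO, 8.2 ± 0.624 in WT, log2 0.89 ± 0.13, adjusted p = 3.9e-05) were higher in KO. Tigar, a phosphatase that slows glycolysis, went the other way in the cold (14.4 ± 1.52 CPM in KO, 27.6 ± 2.12 in WT). Its log2 fold change was -0.94 ± 0.13 (adjusted p = 1.9e-05), and an antisense gene overlaps it.

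**Figure D4:**
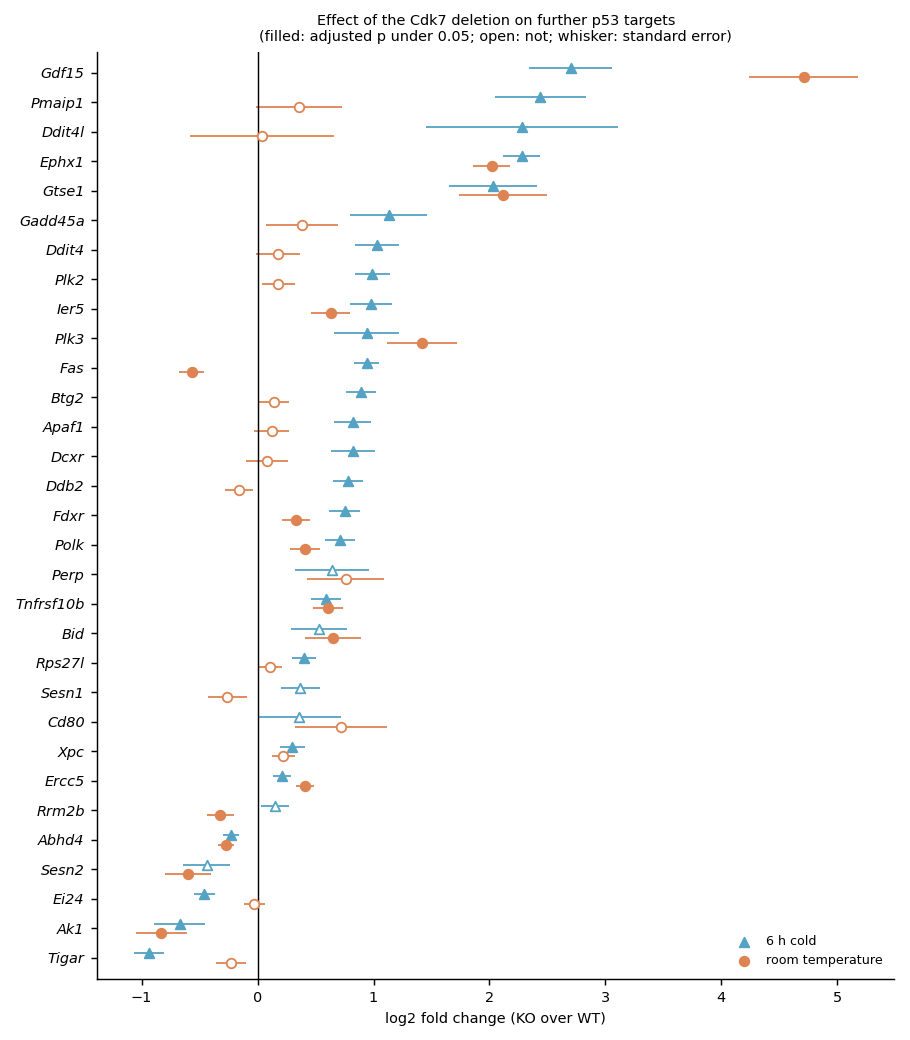
Log2 fold change of KO over WT (x axis) for the 31 further p53 targets tested (y axis, ordered by the value in the cold), in the cold and at RT. Filled symbols passed at an adjusted p under 0.05, open ones did not, and whiskers are standard errors. Gdf15 (2.70 in the cold) heads the order and Tigar (-0.94) ends it, while Fas lies at 0.94 in the cold and -0.57 at RT.

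Cdkn1a is 1 of 6 cyclin-dependent kinase inhibitors that could be tested. At RT, Cdkn1a and Cdkn1c were higher in KO and Cdkn2c lower, and in the cold Cdkn1b and Cdkn2d were higher and none lower. That made 50% called at RT (33.3% higher, 16.7% lower) and 33.3% in the cold, all higher. Of all genes, 40.4% were called at RT (19.3% higher, 21% lower) and 53.7% in the cold (25.9% higher, 27.8% lower). The Cdkn1c pools overlapped at RT (44.8, 72.1 and 57.8 CPM in KO, 45.8, 29.1 and 32.1 in WT, log2 0.71 ± 0.21, adjusted p = 0.022), and with only the libraries compared 0 of the 6 were higher there. Cdkn2c, which encodes the Cdk4 and Cdk6 inhibitor p18, had 21.4, 18.9 and 18.3 CPM in KO in the cold, against 17.4, 15.5 and 16.8 in WT in the cold. At RT it had 27.7, 21.2 and 21.1 CPM in KO and 49.2, 58.3 and 56.1 in WT. The WT pools at RT stood far above all others, and the WT pools in the cold lay below every KO pool. KO against WT gave 0.24 ± 0.11 in the cold (adjusted p = 0.082) and -1.22 ± 0.11 at RT (adjusted p = 5.1e-07), and the interaction was 1.46 ± 0.16 (adjusted p = 1.5e-05).

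Bax and Bbc3 belong to the BCL2 family, of which 15 members were tested. At RT 4 were higher in KO and 1 lower, and in the cold 6 were higher and 2 lower, or 7 and 1 and 12 and 2 with library totals alone. The share called in either direction, 33.3% at RT and 53.3% in the cold, was no higher than that of all genes (40.4% and 53.7%). By direction, 26.7% were higher and 6.67% lower at RT, and 40% and 13.3% in the cold. Of all genes, 19.3% were higher and 21% lower at RT, and 25.9% and 27.8% in the cold. The prosurvival gene Mcl1 was higher in KO in the cold (145 ± 6.09 CPM in KO, 109 ± 3.39 in WT, log2 0.41 ± 0.07, adjusted p = 0.00022) and at RT (93.8 ± 4.47 in KO, 68.4 ± 1.91 in WT, log2 0.46 ± 0.07, adjusted p = 0.00017). Bmf, which binds such prosurvival proteins, was higher in KO in the cold (5.51 ± 0.765 CPM in KO, 2.12 ± 0.416 in WT, log2 1.39 ± 0.18, adjusted p = 1.1e-05). Bak1, the close relative of Bax, was lower in KO in the cold (16.8 ± 3.86 CPM in KO, 45.8 ± 6.93 in WT). Its log2 fold change was -1.45 ± 0.24 (adjusted p = 0.00077), and a gene on the opposite strand overlaps it. Bax and Bak1, which both perforate mitochondria, thus lay on opposite sides of WT in the cold.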

How the data were processed

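The authors deposited raw read counts for each Ensembl gene, in 1 file a pool. Per the submitters' processing notes they used STAR and HTSeq on GRCm38. Tool versions, library kit and annotation release are not given in the sources used here, and the names of the files refer to reverse-strand counting. The 5 summary lines of each file, 31.3 to 34.7% of the reads listed, were left out. Reads with several alignments (26.6 to 30.2%) belong to no gene.

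The counts were analysed with edgeR 4.0.16 (R 4.3.3): filterByExpr by group kept 15208 of 53379 genes, TMM factors (0.7985 to 1.177) scaled the libraries, and a quasi-likelihood model with 1 mean per group was fitted robustly to all 12 libraries. Adjusted p are Benjamini-Hochberg values over the 15208 genes from its 2-sided test, with a threshold of 0.05, and those of an alternative come from its own fit. A standard error (SE) is the fold change on the log2 scale over the root of F. The calling steps were also run on simulated counts with few changed genes and a common spread for all genes. Those counts differ from the data here in both respects, so they do not test the calls above. RPKM used GENCODE exon lengths on GRCm38. Symbols were found for 53274 IDs.

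Alternatives were median-ratio factors, library totals alone, both filters (1 count, or a CPM of 1 in 6 libraries), DESeq2 1.42.0, voom in limma 3.58.1, a fit of the compared groups alone, removal of mitochondrially encoded genes, the replicate block, and libraries left out. The genes and lists were chosen with earlier results of these data known. From each further list up to 6 members with the smallest p per comparison could be named, besides the 10 genes, Cdk7 and Trp53. List members named with no value were counted only.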

Additional observations from a re-analysis of the deposited data

Results flagged for a closer look

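The cold response of 2 of the 10 genes differed between genotypes by the interaction test of edgeR. For Aen the difference was -0.70 ± 0.12 (SE, log2, adjusted p = 0.00082): cold against RT gave 0.48 in KO and 1.18 in WT, each higher in 3 of 3 cold pools. It passed under all 20 alternatives tried, at -0.75 to -0.48. For Trp53inp1 it was 1.38 ± 0.19 (adjusted p = 0.00016): cold against RT gave 0.64 in KO, where 3 of 3 cold pools lay above the RT pools, and -0.74 in WT, where 3 of 3 lay below. It passed under all 20 alternatives tried, at 1.24 to 1.61. Over all genes 23.5% passed this test.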

How the results depend on the processing

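Of 164 recomputed counts over the 10 genes, 155 stayed within 1.5 times their value. With library totals alone, 3 genes were higher in the cold in WT, against 5. With limma voom 2 were lower in the cold in KO, against 1, and the interaction passed for 2 upward and 2 downward, against 1 each. With no filter beyond 1 count it passed for 2 downward. Leaving out 1 library gave 4 to 5 higher and 0 lower for KO against WT at RT, and 5 to 7 higher and 0 lower in the cold. For cold in KO it gave 3 to 4 higher and 1 to 2 lower (2 without KO RT pool 5), for cold in WT 3 to 5 higher (3 without WT cold pool 1) and 3 lower, and for the interaction 1 to 2 in each direction (2 without WT RT pool 1). No called value changed sign.

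Values that changed sign were all uncalled ones. For KO against WT at RT, leaving out 1 library gave -0.08 to 0.21 for Bbc3, -0.06 to 0.30 for Phlda3, -0.09 to 0.02 for Ccng1 and -0.10 to 0.12 for Trp53inp1. Library totals gave 0.19 and the strict filter 0.01 for both Ccng1 and Trp53inp1, and Ccng1 was 0.02 without the muscle-rich pair. In the cold, leaving out 1 library gave -0.01 to 0.07 for Cdkn1a and -0.03 to 0.07 for Aen, and Phlda3 was 0.21 with library totals. For cold in KO, Ccng1 ran from -0.02 to 0.13, and was -0.02 with voom. For cold in WT, Eda2r ran from -0.49 to 0.33, and was 0.33 without the muscle-rich pair. For the interaction, Mdm2 ran from -0.05 to 0.14 and was -0.01 with voom. Library totals gave 0.08 for Bax and 0.11 for Zmat3, and voom 0.01 for Bax. The cause was not tested.

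The main fit did not pair pools by replicate number. Deviations of same-numbered pools from their group means correlated at -0.27, -0.10 and -0.16 between KO and WT in the cold. Between cold and RT in WT they correlated at 0.05, -0.19 and 0.23. Pools of different number gave -0.07 to 0.20 and -0.32 to 0.32. With 3 pools per group such values cannot exclude a pairing. With the replicate block, fitted to the libraries compared alone, 7 genes were higher in KO in the cold, against 6, Ccng1 being added (0.22, adjusted p = 0.045). That fit without the block added it too (0.22, adjusted p = 0.031), and no other call of the 10 genes changed under the block. KO pools at RT share no number with other groups. Bbc3 and Eda2r rested on few counts, which widens their errors.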
